A study of Rattus norvegicus with 16 samples.

Results

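The transcripts of 5 receptor genes that tune insulin release, Adra2a, Glp1r, Gipr, Gcgr and Chrm3, and of Gem, whose product curbs voltage-gated calcium channels, were followed in cultured rat pancreatic islets across 4 glucose concentrations. The members are all probe sets that the array annotation gives to these single gene symbols, which are 6 of 14217 genes and 8 of 31099 probe sets; Adra2a and Chrm3 have a pair each and the other genes have 1 each. A filter on low signal kept 7 of the 8, and every gene kept its brightest probe set.

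Islets came from male Wistar rats weighing 180 to 200 g. After isolation all of them spent 1 week in RPMI medium without serum, which held 5 g/l of BSA and a glucose concentration of 10 mmol/l. The glucose concentration was then set to 2, 5, 10 or 30 mmol/l for 18 h of further culture, so that the 10 mmol/l group stayed at its preculture concentration. Each concentration had 4 Affymetrix arrays, each from 1000 islets, and the design text places the 4 experiments on different islet preparations; the number of rats behind a preparation is not given in the sources used here.

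Beta cells release insulin when glucose metabolism closes potassium channels, depolarises the membrane and opens voltage-gated calcium channels. Receptors that couple to G proteins set the size of that response. Those coupled to Gs, such as the receptors for GLP-1, GIP and glucagon, raise cyclic AMP and amplify release; the muscarinic receptor M3, coupled to Gq, does so through phospholipase C, whereas the alpha-2A adrenergic receptor, coupled to Gi, lowers cyclic AMP and restrains release. Gem belongs to the RGK family of small GTPases, which bind the beta subunit of calcium channels and reduce calcium entry.

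The tissue label was set against marker lists. The summed signal of the beta cell markers was 26230.8 to 30139.0 over the arrays at 2 mmol/l, 29923.7 to 35745.6 at 5 mmol/l, 37915.0 to 49459.7 at 10 mmol/l and 36858.0 to 44009.1 at 30 mmol/l glucose, over the 8 of 12 listed genes that have a probe set; between 10 and 2 mmol/l 5 of the 8 rose and 1 fell, where 15.6% of all probe sets tested rose and 16.9% fell. The beta marker that fell was Pdx1 (log2 change −0.42, limma, adjusted p = 0.0416). The alpha cell list, with 10 of 12 genes represented, summed to 15857.1 to 19534.9, 19678.9 to 21465.4, 24003.6 to 27793.5 and 22835.2 to 24438.3 in the same order. Both sums were brighter at 10 than at 2 mmol/l, but the brightest genes weigh most in a sum. Gcg alone averaged 8363.4 at 2 mmol/l and 11919.3 at 10 mmol/l. Of the 10 alpha markers, 4 rose and 0 fell between 10 and 2 mmol/l. No marker in these lists was at the signal floor. None of the 11 acinar markers with a probe set passed the signal filter, and their sum lay between 83.2 and 152.7 on every array. None of the 6 Schwann and neural markers passed either. Duct markers summed to 2919.1 to 3930.6, and stellate and fibroblast markers, of which all 11 passed, to 1325.4 to 3600.8. Macrophage and leukocyte markers summed to 570.2 to 903.4 and endothelial markers to 264.1 to 402.0. Delta markers summed to 8255.0 to 14263.6, and PP and epsilon markers to 1065.3 to 2618.4. In whole islets, a change in the number of cells of a type and a change in RNA per cell cannot be told apart, and the part of the marker shifts in the results below was not tested.

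Adra2a encodes the alpha-2A adrenergic receptor, through which adrenaline and noradrenaline hold back insulin release. Its brighter probe set, 1393048_at, gave signals of 216.6, 193.6, 118.7 and 143.7 at 2 mmol/l glucose in replicates 1 to 4, and 258.5, 238.9, 162.2 and 174.6 at 5 mmol/l. The signals were 854.3, 760.2, 782.1 and 703.4 at 10 mmol/l and 791.3, 634.5, 663 and 745.9 at 30 mmol/l. All 8 arrays at the upper concentrations lay above all 8 at the lower ones, a split that runs between 5 and 10 mmol/l. Adra2a was 3.78-fold higher at 10 than at 5 mmol/l (log2 change 1.92 ± 0.17, SE; limma, adjusted p = 3.88e-07), and 4.73-fold higher at 10 than at 2 mmol/l (2.24 ± 0.17; adjusted p = 3.46e-08). By size, the change between 10 and 2 mmol/l ranked 2 from the top of 10223 genes. The steps below and above did not pass: the log2 change was 0.32 ± 0.17 for 5 over 2 mmol/l (adjusted p = 0.382) and −0.13 ± 0.17 for 30 over 10 mmol/l (95% interval −0.49 to 0.23; adjusted p = 0.748). The 5 mmol/l array was above the 2 mmol/l array of the same number in 4 of 4 replicates, by 0.26 to 0.45 on the log2 scale.

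The dimmer Adra2a probe set, 1387708_at, gave the same order of groups. Its signals were 40.9, 47.2, 35.9 and 21.6 at 2 mmol/l, 40.7, 47.9, 35.6 and 65.5 at 5 mmol/l, 142.6, 125.6, 112.4 and 99.8 at 10 mmol/l, and 132.2, 87.5, 82.1 and 101.8 at 30 mmol/l. It was 2.58-fold higher at 10 than at 5 mmol/l (1.37 ± 0.24; adjusted p = 0.000446), and the groups again did not overlap. Across the 16 arrays the log2 signals of the Adra2a probe sets correlated with Pearson r = 0.924, a value that reads the same RNA on the same arrays.

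Gem carried the other large change. Its single probe set, 1382351_at, read 85.5, 118.4, 92.9 and 89.8 at 2 mmol/l glucose and 102.8, 100.1, 73.4 and 103.1 at 5 mmol/l. It read 576.5, 346.6, 403.2 and 364.4 at 10 mmol/l and 743.6, 513.9, 543.4 and 703 at 30 mmol/l. The 2 and 5 mmol/l groups were intermixed, the 10 mmol/l group lay wholly above both, and the 30 mmol/l group overlapped the 10 mmol/l group. Gem was 4.41-fold higher at 10 than at 5 mmol/l (log2 change 2.14 ± 0.17; adjusted p = 1.04e-07) and 6.45-fold higher at 30 than at 2 mmol/l (2.69 ± 0.17; adjusted p = 2.1e-09). The change for 5 over 2 mmol/l was −0.03 ± 0.17 (95% interval −0.38 to 0.33; adjusted p = 0.963). Gem also passed for 30 over 10 mmol/l (1.49-fold, 0.58 ± 0.17; adjusted p = 0.0461), with the 30 mmol/l array higher in 4 of 4 replicate numbers; whether this step differed between Gem and Adra2a was not tested. The adjusted p of this step exceeded the threshold when any of 11 of the 16 arrays was left out, at 0.0522 to 0.135 (replicates 3 and 4 at 2 mmol/l, 1, 2 and 4 at 5 mmol/l, 2, 3 and 4 at 10 mmol/l, and 1, 3 and 4 at 30 mmol/l), and it was 0.0141 with the replicate number as a block. It was 0.0511 to 0.0937 with quantile normalization, median centring, no filter on low signal, no variance trend or the compared groups alone.

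**Figure D1:**
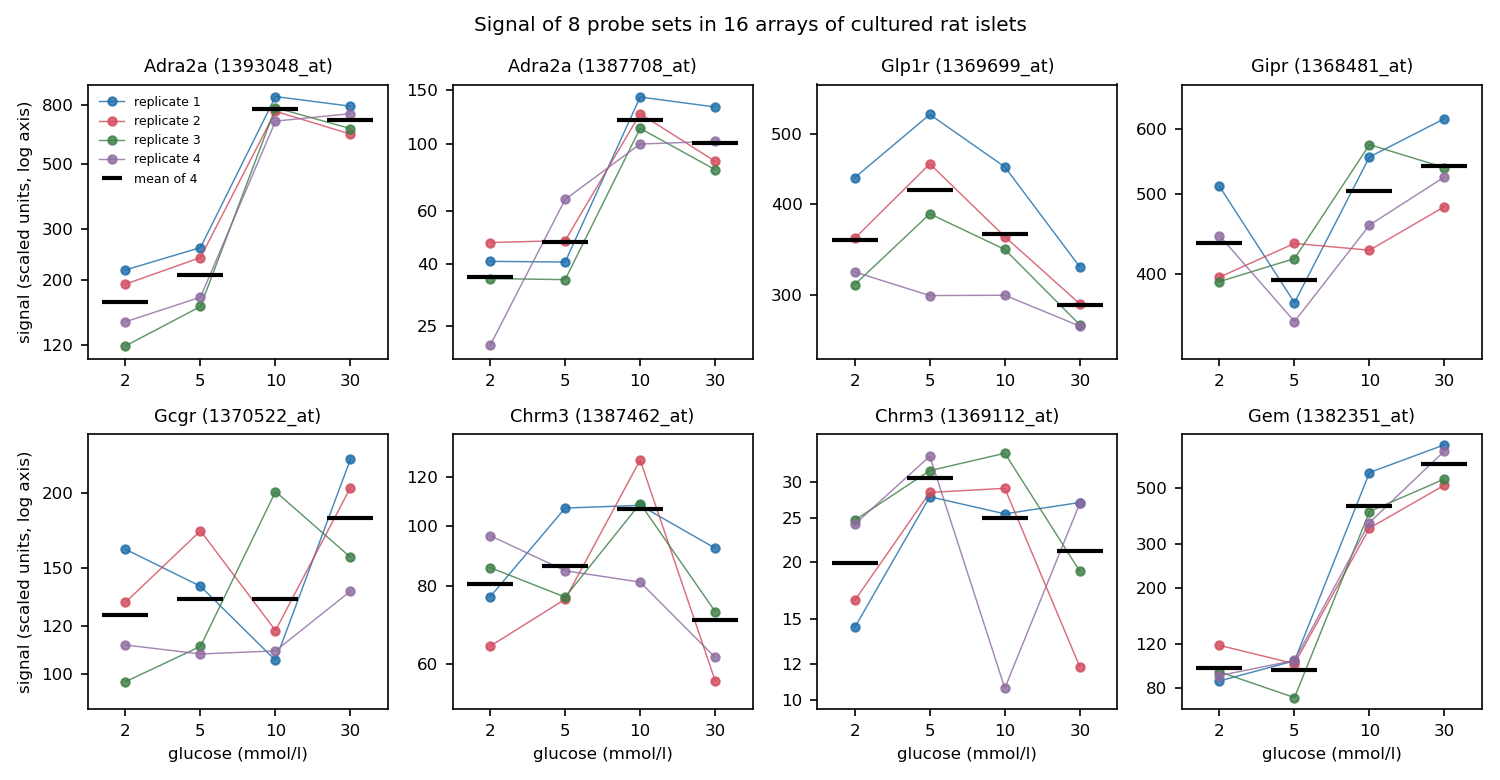
Signal of each member probe set (vertical log axes, arbitrary array units, differing by panel) against the glucose concentration in mmol/l; coloured lines join the arrays of 1 replicate number and black bars are means of 4 arrays. The Adra2a and Gem panels step up between 5 and 10 mmol/l: Adra2a averaged 775 at 10 mmol/l against 209 at 5 mmol/l, and Gem 423 against 94.9, while the other receptors stay within a narrower band.

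The receptors coupled to Gs moved little by comparison. Gipr encodes the receptor for GIP, an incretin hormone released from the gut. Its signals were 511.2, 396.8, 391.9 and 445.6 at 2 mmol/l, 369.6, 436, 417.9 and 350.6 at 5 mmol/l, 555, 427.8, 574.4 and 458.9 at 10 mmol/l, and 617.6, 483.1, 538.7 and 524.9 at 30 mmol/l. Neighbouring groups overlapped throughout. Gipr rose 1.28-fold at 10 over 5 mmol/l (0.35 ± 0.12; adjusted p = 0.0381) and 1.24-fold at 30 over 2 mmol/l (0.31 ± 0.12; adjusted p = 0.0422), with the 30 mmol/l array above the 2 mmol/l array in 4 of 4 replicate numbers. The call for 10 over 5 mmol/l was lost without replicate 1 or 4 at 5 mmol/l or replicate 1 or 3 at 10 mmol/l (adjusted p = 0.0899 to 0.128). The call for 30 over 2 mmol/l was lost without replicate 2, 3 or 4 at 2 mmol/l or replicate 1, 3 or 4 at 30 mmol/l (0.0612 to 0.132). Both were lost when arrays were centred on their medians (0.156 and 0.081), with no filter on low signal (0.0665 and 0.0713) and without a variance trend (0.0629 and 0.0655); the first was also lost in a fit on the compared groups alone (0.0572).

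Glp1r encodes the receptor for GLP-1, the other incretin. It read 435.1, 358.7, 309.7 and 322.3 at 2 mmol/l, 531.9, 454.6, 387.8 and 299 at 5 mmol/l, 450.2, 360.6, 346.2 and 299.3 at 10 mmol/l, and 327.5, 291.2, 272.4 and 271.3 at 30 mmol/l. Replicate 1 was the brightest at each concentration, and the groups overlapped. The log2 change was 0.03 ± 0.16 for 10 over 2 mmol/l (95% interval −0.30 to 0.36; adjusted p = 0.912) and −0.31 ± 0.16 for 30 over 10 mmol/l (adjusted p = 0.276). With the replicate number as a block, Glp1r fell for 30 over 10 mmol/l (adjusted p = 0.0197) and for 30 over 2 mmol/l (−0.29; adjusted p = 0.0112, against 0.17 without the block). The 30 mmol/l array was the lower in 4 of 4 replicate numbers in each of these comparisons. In limma's F-test over the 4 concentrations, the adjusted p of Glp1r was 0.084 without the block and 0.000814 with it.

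Gcgr encodes the glucagon receptor, which lets glucagon from alpha cells act on beta cells. Its signals were 161.3, 131.5, 96.9 and 111.6 at 2 mmol/l, 139.9, 173.2, 111 and 107.8 at 5 mmol/l, 105.2, 118, 201.4 and 109.1 at 10 mmol/l, and 228.2, 204.5, 156.4 and 137.3 at 30 mmol/l. All groups overlapped, and replicate 3 stood above the other arrays at 10 mmol/l. The log2 change for 30 over 2 mmol/l was 0.53 ± 0.22 (1.45-fold; adjusted p = 0.0689), and with the replicate block the adjusted p was 0.0335. It was 0.0356 to 0.038 without replicate 1 at 2 mmol/l, replicate 3 at 10 mmol/l or replicate 4 at 30 mmol/l.

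Chrm3 encodes the muscarinic receptor M3, which carries the signal of acetylcholine from parasympathetic nerves. Its brighter probe set, 1387462_at, read 76.9, 64, 85.7 and 96.5 at 2 mmol/l, 106.9, 76.2, 76.8 and 84.7 at 5 mmol/l, 108, 127.8, 108.7 and 81.2 at 10 mmol/l, and 92.1, 56.3, 72.8 and 61.4 at 30 mmol/l. The 30 mmol/l array was below the 10 mmol/l array in 4 of 4 replicate numbers, with a log2 change of −0.60 ± 0.19 (95% interval −0.99 to −0.21; adjusted p = 0.0613). With the replicate block this fall passed (adjusted p = 0.0264), and so it did without replicate 4 at 10 mmol/l or replicate 1 at 30 mmol/l. The adjusted p of limma's F-test for Chrm3 was 0.0749 without the block and 0.0422 with it. The second Chrm3 probe set, 1369112_at, was too dim to be tested, with signals between 10.6 and 34.6 over the 16 arrays, and its log2 signals correlated with those of the brighter set at Pearson r = 0.522.

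**Figure D2:**
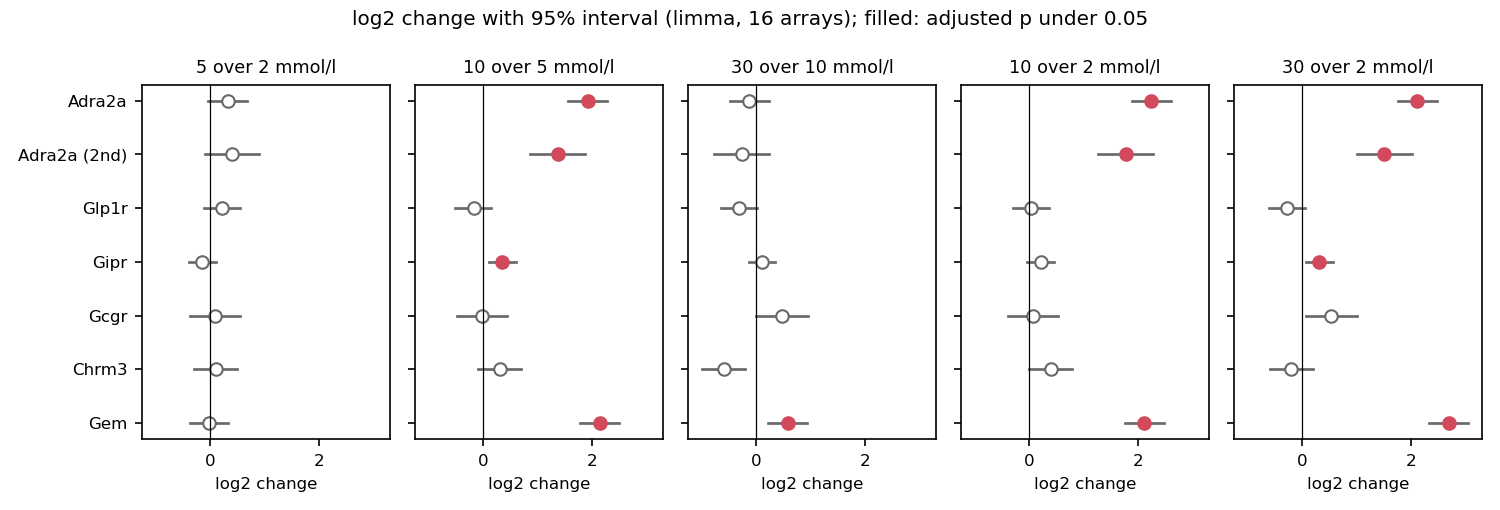
Log2 change in signal (horizontal axis) of the 7 tested member probe sets for 5 comparisons of glucose concentrations, with 95% intervals from limma; filled red points have an adjusted p under 0.05. The Adra2a and Gem points lie above 1 for 10 over 5, 10 over 2 and 30 over 2 mmol/l, and every other point lies between −0.60 and 0.58.

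Counted by gene, with each gene at its brightest probe set, 3 of 6 members changed over the 4 concentrations in limma's F-test (Adra2a, Gem and Gipr), at a background of 41.8% of the 18625 probe sets tested; with the replicate block 5 of 6 passed, at a background of 55.2%. For 10 over 5 mmol/l, 3 of 6 rose (Adra2a, Gem and Gipr) against 10.0% of probe sets called higher, 11.1% lower and 21.1% in either direction. For 10 over 2 mmol/l, 2 of 6 rose (Adra2a and Gem), where 15.6% of all probe sets were higher, 16.9% lower and 32.6% called. For 30 over 2 mmol/l, 3 of 6 rose (Adra2a, Gem and Gipr), where 16.3% were higher and 36.9% called; with the replicate block 5 of 6 were called, against 46.3%. For 30 over 10 mmol/l, Gem was the 1 of 6 called, where 6.82% were called and 3.26% called higher; with the block 3 of 6 were called (Gem up, Glp1r and Chrm3 down), against 14.8%. For 5 over 2 mmol/l, 0 of 6 were called by limma, where 2.60% of probe sets were; 0 of 6 had an unadjusted p under 0.05, and with the block 0 were called (background 9.87%) while 2 had an unadjusted p under 0.05. For 10 over 5 mmol/l the split of all calls was 1867 higher and 2068 lower, and 1150 higher and 2548 lower when arrays were centred on their medians. The Adra2a and Gem groups did not overlap for 10 over 5, 10 over 2 or 30 over 2 mmol/l, where 22.6%, 30.7% and 33.9% of all probe sets did not overlap. Brighter probe sets were called more often. In a fit on the upper 40% by mean level, 6917 of 12417 probe sets passed the F-test. For 10 over 5 mmol/l 3775 were called there, and for 10 over 2 mmol/l 5478. The members called in that fit were 3, 3 and 2 of 6.

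Because the 3 receptors coupled to Gs share a second messenger, differences between them were tested in 6 exact permutation tests on the log2 signal ratio of 2 receptors on the same array. 0 of 6 had an unadjusted p under 0.05. With 4 arrays a group the smallest 2-sided p possible was 0.0286, which adjusts to 0.171 for a lone test, so that no test could pass unless 4 of the 6 reached that minimum. The tests therefore do not show that the receptors moved alike. The ratio of Glp1r to Gipr had the smallest p: it was −0.90 ± 0.11 at 30 mmol/l and −0.47 ± 0.24 at 10 mmol/l on the log2 scale, with the SD of 4 arrays, a difference of −0.42 ± 0.13 (SE) that ran lower in 4 of 4 replicate numbers (exact p = 0.0571, Benjamini-Hochberg adjusted p = 0.257). Taken within replicate numbers, the difference ran from −0.61 to −0.25 with a paired SE of 0.08, and its exact p was 0.125, the smallest that 4 pairs can give. The Glp1r to Gcgr ratio differed by −0.78 ± 0.30 between 30 and 10 mmol/l (exact p = 0.0857, adjusted p = 0.257), and by −1.58 to 0.02 within replicate numbers (exact p = 0.25).

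The sequence just before the transcription start is shown for the receptor with the large change, Adra2a, beside Glp1r and Chrm3, which did not pass between 10 and 2 mmol/l. Each is the 250 bases before the start in RefSeq's table for build GRCr8, 5′ to 3′ on the gene's strand; the table held 4 of the 6 genes (Gcgr with a pair of starts), and Gipr and Gem had no entry. The motifs searched on both strands were the cyclic AMP response element TGACGTCA, its core TGACG, the E box CACGTG and the TATA box TATAAA. The core is part of the whole element. The capitals mark the one match, TGACG in Chrm3.
Adra2a: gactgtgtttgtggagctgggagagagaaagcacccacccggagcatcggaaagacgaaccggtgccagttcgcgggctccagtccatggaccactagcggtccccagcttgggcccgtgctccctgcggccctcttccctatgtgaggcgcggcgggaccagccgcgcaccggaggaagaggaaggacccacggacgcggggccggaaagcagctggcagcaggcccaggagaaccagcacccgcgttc
Glp1r: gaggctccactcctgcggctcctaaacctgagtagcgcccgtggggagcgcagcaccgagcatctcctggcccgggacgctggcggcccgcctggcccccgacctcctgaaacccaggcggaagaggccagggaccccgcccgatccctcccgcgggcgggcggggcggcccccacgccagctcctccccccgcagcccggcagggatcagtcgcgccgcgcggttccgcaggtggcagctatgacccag
Chrm3: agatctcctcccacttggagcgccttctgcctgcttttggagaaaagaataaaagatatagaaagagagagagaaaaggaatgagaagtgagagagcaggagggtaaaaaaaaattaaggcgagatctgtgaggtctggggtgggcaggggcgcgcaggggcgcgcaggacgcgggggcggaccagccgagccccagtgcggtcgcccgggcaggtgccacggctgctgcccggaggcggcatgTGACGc
These lie at chr1:263066530-263066779, chr20:8973143-8973392 and chr17:64696677-64696926, all on the + strand. Over the 33469 promoter windows of the table, 1.59% held TGACGTCA, 18.22% TGACG, 5.59% CACGTG and 12.93% TATAAA. A missing motif says only that these letters are not in this window.

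The genes whose log2 signals followed Adra2a and Gem most closely over the 16 arrays were found among 10222 other genes. For Adra2a they were C1galt1c1, Tmem215, Stard5, Tmem165 and Rpn2, at Pearson r of 0.979, 0.971, 0.970, 0.966 and 0.965. For Gem they were Tent5a, Ufm1, Dnajc22, Uso1 and Upf3b, at 0.977, 0.974, 0.974, 0.971 and 0.969. The 16 arrays share the 4 concentrations, so these values describe likeness of pattern and carry no p. Adra2a and Gem correlated at 0.948 with each other. Tmem215, a membrane protein gene, had a log2 change of 2.21 for 10 over 2 mmol/l, close in size to Adra2a, and its mean signal was 3615.4 ± 402.4 at 10 mmol/l and 786.3 ± 138.2 at 2 mmol/l, with the SD of 4 arrays. Tent5a, a terminal nucleotidyltransferase gene, had mean signals of 237.9, 269.8, 979.4 and 1544.5 from 2 to 30 mmol/l.

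**Figure D3:**
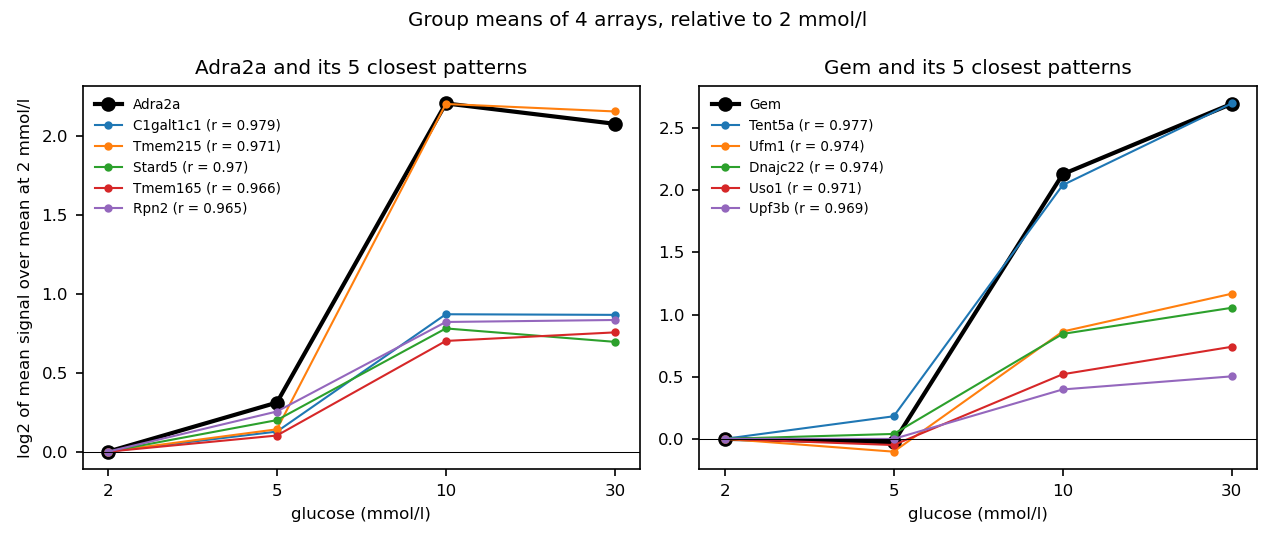
Log2 of mean signal over the mean at 2 mmol/l (vertical axis) against glucose concentration for Adra2a and Gem with the 5 genes closest to each in pattern. The lines around Adra2a are nearly level between 10 and 30 mmol/l, and those around Gem are higher at 30 than at 10 mmol/l.

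Genes of the pathways around these receptors were described for 10 over 2 mmol/l as counts. Over all probe sets tested 15.6% rose, 16.9% fell, 32.6% were called and the median log2 change was 0.02, and the list counts are read against these shares. Among the upper 40% of probe sets by mean level the share called was larger, at 5478 of 12417 (2615 higher and 2863 lower). In the Gs and cyclic AMP list, 8 of 27 tested genes rose and 5 fell (48.1% called), with a list median of −0.06. Crem, a cyclic AMP-responsive transcription regulator, had mean signals of 508.2 ± 72.9 at 10 mmol/l and 263.0 ± 11.5 at 2 mmol/l, a log2 change of 0.94 ± 0.10 (adjusted p = 1.22e-06). Pde10a, a phosphodiesterase that breaks down cyclic nucleotides, rose by 1.20 ± 0.11. Adcy8, an adenylyl cyclase, moved the other way, to 25.8 ± 7.3 against 92.3 ± 18.1, a change of −1.86 ± 0.38 (adjusted p = 0.000946). Its mean at 10 mmol/l lay close to 25.4, the signal at which the filter on low signal cuts. The size of the Adcy8 fall is therefore uncertain, and the part of background signal in it was not tested. Akap11, an anchoring protein for protein kinase A, fell by 0.53.

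In the Gi list and its regulators, 7 of 21 rose and 2 fell (42.9% called), and the median was 0.28. Gng2, a G protein gamma subunit, rose by 1.27 ± 0.13, and Rgs2 and Rgs16, which shorten G protein signals, rose by 1.45 ± 0.20 and 1.22 ± 0.21. Rgs16 had mean signals of 2378.8 ± 796.0 at 30 mmol/l and 719.2 ± 107.9 at 10 mmol/l. Rgs17, another member of the RGS family, fell by 1.02. Of 13 tested genes listed as other Gi-coupled receptors, 1 rose (Adgrg1, by 0.34) and 3 fell (30.8% called). The receptor lists assign a coupling to each gene, and coupling in these islets was not measured. Some entries of this list, such as Ghsr and Adgrg1, are better known for coupling to other G proteins. The counts are therefore of list entries and not of Gi receptors alone. The somatostatin receptor gene Sstr3 was at −1.04 ± 0.13, the galanin receptor gene Galr1 at −0.73 ± 0.20 and the ghrelin receptor gene Ghsr at −0.90 ± 0.26. Ghsr was no longer called when replicate 2 at 2 mmol/l was left out (adjusted p = 0.0541). With all arrays of 1 replicate number left out of the limma fit, the calls of Ghsr (number 1, 0.0648) and Galr1 (number 4, 0.0887) were lost.

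In the Gq list, 1 of 16 rose and 3 fell, a smaller share called than over all probe sets. Plcb4, a phospholipase C, rose by 0.72 ± 0.08, and its relative Plcb1 fell by 0.34; the protein kinase C genes Prkcd and Prkcz fell by 0.79 and 0.55. Of 11 tested genes listed as other Gs- or Gq-coupled receptors, 2 rose and 3 fell (45.5% called): P2ry1, a purine receptor, rose by 0.63, while Casr, the calcium-sensing receptor, and Adora2b, an adenosine receptor, fell by 0.75 and 0.73. Vipr1, a receptor for the peptide VIP, had a log2 change of −0.45 (adjusted p = 0.0694, and 0.0339 with the replicate block). The receptor kinases and arrestins numbered 9 tested, of which 22.2% were called, with Ramp2, a receptor accessory protein, up by 0.84 and Grk2, a receptor kinase, down by 0.57. Grk6, a further receptor kinase, changed by −0.31 (adjusted p = 0.0766, and 0.00834 with the block). Some of these calls were lost with all arrays of 1 replicate number left out of the limma fit. Those were Plcb1 (number 2, adjusted p = 0.0701), and Prkcz, Casr and Grk2 (number 3, 0.0502, 0.0969 and 0.0597).

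Among the RGK GTPases and calcium channel subunits, 1 of 10 rose and 2 fell (30.0% called). Rem2, the relative of Gem in that family, had means of 531.4 ± 21.4 at 10 mmol/l and 238.0 ± 43.7 at 2 mmol/l, a change of 1.18 ± 0.13 (adjusted p = 3.26e-06). Cacna1c, a pore-forming subunit of L-type channels, had 159.2 ± 24.5 at 10 mmol/l and 319.6 ± 37.5 at 2 mmol/l (−1.01 ± 0.12; adjusted p = 6.28e-06), and Cacnb2, a beta subunit, fell by 0.51. Of 12 ligand genes made in islets, 6 rose and 0 fell (limma; 0 were lower at an unadjusted p under 0.05): Sst, encoding somatostatin, by 0.63 ± 0.06, Npy, neuropeptide Y, by 0.72 ± 0.08, Iapp, amylin, by 0.62 ± 0.09, and Chga, chromogranin A, by 0.52 ± 0.08. With the replicate block the numbers called were 16 of 27 in the Gs and cyclic AMP list, 12 of 21 in the Gi list, 4 of 13 listed as other Gi-coupled receptors, 5 of 16 in the Gq list, 7 of 11 listed as other Gs- or Gq-coupled receptors, 3 of 9 kinases and arrestins, 4 of 10 in the RGK and calcium channel list and 7 of 12 ligands, where 42.3% of all probe sets were called. With quantile normalization the Iapp change was 0.02 and no longer passed.

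**Figure D4:**
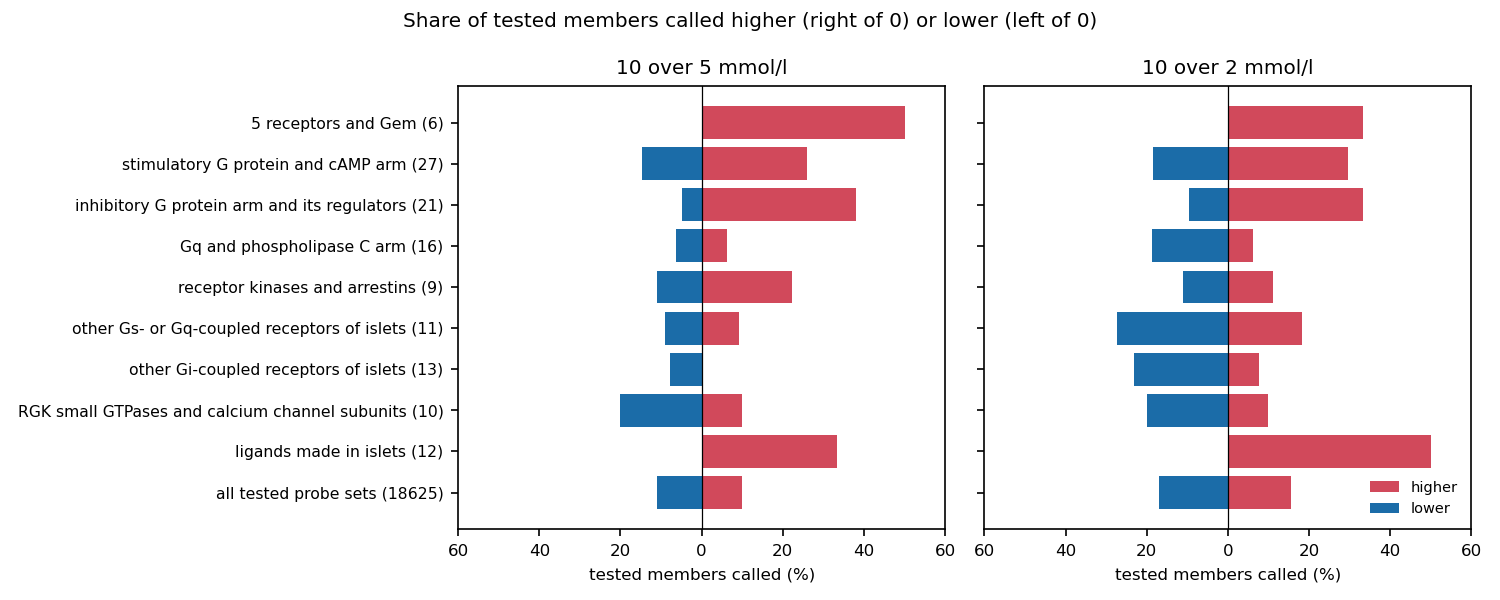
Percent of tested genes called higher (to the right of 0) and lower (to the left) for 10 over 5 and 10 over 2 mmol/l glucose, for the 6 members, the 8 gene lists and all probe sets tested. The ligand list has no lower call at 10 over 2 mmol/l, and the lists differ in size from 9 to 27 genes tested.

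The Actb 3 prime to 5 prime ratio averaged 2.073 ± 0.136 at 10 mmol/l and 1.763 ± 0.131 at 2 mmol/l, with the SD of 4 arrays. It was 2.038 ± 0.084 at 5 mmol/l and 2.04 ± 0.085 at 30 mmol/l. The same ratio for Gapdh ran the other way between 10 and 2 mmol/l, at 0.798 ± 0.058 at 10 mmol/l and 0.864 ± 0.068 at 2 mmol/l. For Gapdh it was 0.825 ± 0.062 at 5 mmol/l and 0.898 ± 0.051 at 30 mmol/l. The mean log2 signal of the hybridization control probe sets, which are spiked in after RNA extraction, averaged 9.925 ± 0.108 at 10 mmol/l and 9.417 ± 0.105 at 2 mmol/l. These controls averaged 9.613 ± 0.241 at 5 mmol/l and 9.665 ± 0.055 at 30 mmol/l. The part of these measures in the changes above was not tested.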

How the data were processed

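Total RNA of 16 rat islet cultures was measured on Affymetrix Rat230_2 arrays. The deposited values are linear intensity signals per probe set, made with GCOS per the submitters' processing notes; no version is given in the sources used here. The trimmed mean, which leaves out the outer 2% at each end, was 150.042 to 150.051 on every array, so arrays had been scaled to a common level. Values under 3.4, the 10th percentile, were set to it and log2 was taken. The upper 60% of probe sets by mean log2 signal (18625, cut at a signal of 25.4) were tested with limma 3.58.1 in R 4.3.3 (lmFit, eBayes with trend) over all 16 arrays, with Benjamini-Hochberg adjustment over all of them and a threshold of 0.05. Of the probe sets, 20826 carried 1 gene symbol, 436 several and 9780 none; a gene is represented by its brightest probe set. The main limma fit was tested on simulated data, which held no effect shared by a replicate number. The number of arrays limits the precision.

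Replicate numbers paired the samples: the deviations of same-numbered arrays correlated at 0.136 to 0.434 in all 24 pairs, against −0.264 to 0.130 for the 72 other pairs, and the design text names 4 experiments on different islet preparations. The fit with the number as a block is given where it changes a call described for a named gene, and for counts. Each number also fell in 1 hybridization run of its own, with runs set apart by the recorded date and time of day. Chip lot and scan day follow the number, so preparation and array run cannot be told apart. P-values without the block measure the spread between arrays of different numbers; those with it leave out the part that a number shares.

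Members, gene lists and tests were chosen with earlier results of these data known. Named are all member probe sets, up to 4 genes per list by smallest F-test p, and the 5 genes closest to each member in Pearson r. Alternatives were the replicate block, the scan day, quantile normalization, median centring, other filters, no variance trend, fits on the compared groups alone, and leaving out arrays.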

Additional observations from a re-analysis of the deposited data

Results flagged for a closer look

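Gem at 5 mmol/l glucose in replicate 3 had a signal of 73.4, below 100.1 to 103.1 in the other 3 arrays of its group. On the log2 scale, the gap to the nearest array took 0.913 of the range of the group. It was the 1 such array among 32 groups of 4 that were checked, where chance marks about 1 in 20 groups.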

How the results depend on the processing

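The calls of Adra2a and Gem for 10 over 5, 10 over 2 and 30 over 2 mmol/l held in every alternative run. The count of members called by the F-test was 3 in the reported fit. The same count was 5 with the replicate block, 4 with the scan day as a block and 2 with median centring, and 2 to 4 when arrays were left out. For 30 over 10 mmol/l, with 1 member called in the reported fit, it was 3 with the replicate block, 3 with the scan day as a block, 2 in the upper 40% of mean level, and 0 with quantile normalization, median centring, no level filter, no variance trend or only the groups compared; leaving out arrays gave 0 to 1. For 30 over 2 mmol/l (3 in the reported fit) it was 5 with the replicate block, 5 with the scan day, and 2 with median centring, no level filter or no variance trend, where Gipr was lost. The cause was not tested. Near 0, the Glp1r change for 10 over 2 mmol/l was −0.02 with median centring. Leaving out arrays also crossed 0 for Glp1r (−0.08 to 0.13), Gcgr (−0.27 to 0.29), Sstr5 (−0.29 to 0.04) and Cacna1b (−0.15 to 0.03) at 10 over 2 mmol/l, for Gcgr (−0.32 to 0.16) and Grk4 (−0.11 to 0.19) at 10 over 5 mmol/l, for Gcgr (−0.05 to 0.21), Chrm3 (−0.03 to 0.19) and Gem (−0.13 to 0.09) at 5 over 2 mmol/l, and for the ratios of Glp1r to Gcgr (−0.27 to 0.25) and Gipr to Gcgr (−0.05 to 0.36) at 10 over 2 mmol/l. Among single genes and lists, 3589 values kept their side of the threshold, 75 lost it, 45 gained it, 29 moved and 39 reversed; none of the reversed ones had passed in the reported fit. Signal near the floor limits Chrm3, whose dimmer probe set was not tested.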

Other observations

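The other members had less close neighbours in pattern over the 16 arrays, given here as a description with no p. For Gipr the 5 closest genes were Usp36, Golph3l, Tmem167a, Txlna and Sec16a, at Pearson r of 0.886 to 0.846. For Glp1r they were Ostm1, Tollip, Nt5c2, Dcun1d4 and RGD1359108, at 0.878 to 0.837. For Gcgr they were Apob, Midn, Oga, Emilin1 and Slc31a1, at 0.818 to 0.758. For Chrm3 they were Nrros, Arsg, Ltn1, Hps4 and Aldh9a1, at 0.817 to 0.761.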
